A study of Mus musculus with 9 samples.

Results

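The matrix metalloproteinases (MMPs) and the tissue inhibitors of metalloproteinases (TIMPs) were examined in macrophages grown from 3 sources. The members were the rows of the deposited expression table with the symbols Mmp2, Mmp8, Mmp9, Mmp12, Mmp13, Mmp14, Mmp19, Timp1, Timp2 and Timp3, which are 10 of the 24411 genes listed. Each RNA-seq library came from 1 macrophage line of C57BL/6 mice, with 3 lines from yolk sac at E9.5 (YS lines), 3 from fetal liver at E14.5 (FL lines) and 3 from adult bone marrow (BM lines). All lines were expanded on non-coated polystyrene in medium with 10% serum and 100 ng/mL recombinant human M-CSF, the growth factor that macrophages need. A line was the bulk culture of a separate dish or well, started from cells pooled over several mice, so it is neither a clone nor 1 animal. The p-values therefore measure the spread between cultures. Whether the 3 lines of a source came from separate pools of cells is not stated, so they may share a pool. The source, the age of the mice and the culture history changed together and cannot be told apart. Yolk sac cells were started in multi-well plates and the other cells in dishes, and the time to stable growth also differed.

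MMPs are zinc-dependent endopeptidases that cut collagens, elastin, gelatins and other proteins of the extracellular matrix, as well as chemokines and receptors. Most are secreted as inactive precursors and become active when the propeptide is removed by plasmin, by furin or by another MMP, and TIMPs block the active enzymes by binding the catalytic site. Macrophages are a major source of MMP12, the macrophage elastase, and use these enzymes in tissue remodelling and migration.

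Values are TPM, a transcript level scaled to gene length and to the library total, so levels of different genes can be set side by side. TPM keeps no read depth, so no counting error can be given. A value of 0 was not read as absence of the transcript, since Rpl26, which encodes a ribosomal protein that every cell uses, was also listed at 0 in 6 of the 9 libraries. Of 10 macrophage markers, all 10 reached at least 1 TPM in every line. Of 9 fibroblast and stroma markers, 1 reached 1 TPM in any library, and the summed level of the list was at most 1.55 TPM. Other lists were higher. The sum of 7 endothelium markers was 8.07 to 67.3 TPM in YS, 22.2 to 94.0 in FL and 39.3 to 44.9 in BM lines. That of 5 megakaryocyte markers, mostly Pf4, was 230 to 2124.2 TPM in YS, 616 to 1729.8 in FL and 38.6 to 393 in BM lines. Whether other cell types were present was not tested. BM line 2 stood apart from the other BM lines. For the 45 genes below 0.5 TPM in both BM line 1 and BM line 3 that reached 20 TPM in YS line 2, the median level in BM line 2 was 14.1% of that in YS line 2, and it had 214.99 TPM of the globin gene Hba-a1 against 0.30 TPM in each of BM lines 1 and 3. The limma tests of the 5 tested members against BM lines, and the calls of other genes against BM lines, are therefore also given without BM line 2.

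Mmp13, Mmp12 and Mmp8 lie in the MMP gene cluster of mouse chromosome 9, together with Mmp27, which is no member but is described with the cluster. The other members lie on chromosomes 2 (Mmp9), 8 (Mmp2), 10 (Mmp19 and Timp3), 11 (Timp2), 14 (Mmp14) and X (Timp1). RefSeq promoter entries for GRCm38.p6 were found for 7 of the 10 members and not for Mmp2, Mmp9 and Mmp19. The 120 bases before the start are shown for the 3 members in the cluster and for Mmp27, because AP-1 and the TATA box are the promoter elements best known from inducible MMP genes. All lie on the plus strand. Mmp12 has 2 listed starts, of which only the second, the start with an AP-1 match, is shown. Capitals mark the letters TGANTCA, the AP-1 motif, and TATAAA, the TATA box. Both were searched on both strands, and no pair of these matches overlapped.
Mmp13, chr9:7272394-7272513: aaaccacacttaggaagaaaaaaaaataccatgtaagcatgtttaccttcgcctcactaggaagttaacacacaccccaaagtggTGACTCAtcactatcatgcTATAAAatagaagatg
Mmp12, chr9:7347254-7347373: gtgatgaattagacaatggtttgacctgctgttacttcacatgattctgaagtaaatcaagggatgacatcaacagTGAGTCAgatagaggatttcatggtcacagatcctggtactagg
Mmp8, chr9:7558309-7558428: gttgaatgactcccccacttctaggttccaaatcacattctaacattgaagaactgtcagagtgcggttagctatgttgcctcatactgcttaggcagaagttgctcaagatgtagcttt
Mmp27, chr9:7571276-7571395: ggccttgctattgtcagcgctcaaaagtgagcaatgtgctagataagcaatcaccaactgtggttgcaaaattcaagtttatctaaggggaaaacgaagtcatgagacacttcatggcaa

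The Mmp13 window held AP-1 letters 35 to 29 bases before the start and TATA letters 16 to 11 bases before it. The window of the second Mmp12 start held AP-1 letters 44 to 38 bases before the start and no TATA letters, and the first Mmp12 start held neither. Neither set of letters was found before Mmp8 or Mmp27. Among 32851 promoter windows of 250 bases, 6.75% held TGANTCA and 12.4% held TATAAA. A match describes the letters only, and these libraries measured no binding.

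Across the family, 5 of the 10 members reached 1 TPM in at least 3 of the 9 libraries and were tested, namely Mmp2, Mmp12, Mmp13, Mmp19 and Timp2. The other 5 were not tested, and 4 of these, Mmp8, Mmp14, Timp1 and Timp3, were under 1 TPM in every library. The test was limma on log2(TPM + 1), and a call needed a difference of more than 2-fold with the false discovery rate below 0.1. Between YS and BM lines 2 members, Mmp12 and Mmp13, were called higher in YS lines and 0 lower, where 12.8% of all tested genes were called, 7.57% as higher and 5.22% as lower. Between FL and BM lines the same 2 members were called higher in FL lines and 0 lower, where 10.3% of all tested genes were called, 6.01% as higher and 4.30% as lower. Between YS and FL lines 1 member, Timp2, was called lower in YS lines and 0 higher, where 3.79% of all tested genes were called, 1.95% as higher and 1.85% as lower. The comparisons with BM lines share the BM libraries, and the comparisons of YS lines share the YS libraries. Mmp13 reached 1 TPM in the YS and FL lines alone and entered the fit only through them. Its calls against BM lines are therefore no support for a difference.

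**Figure D1:**
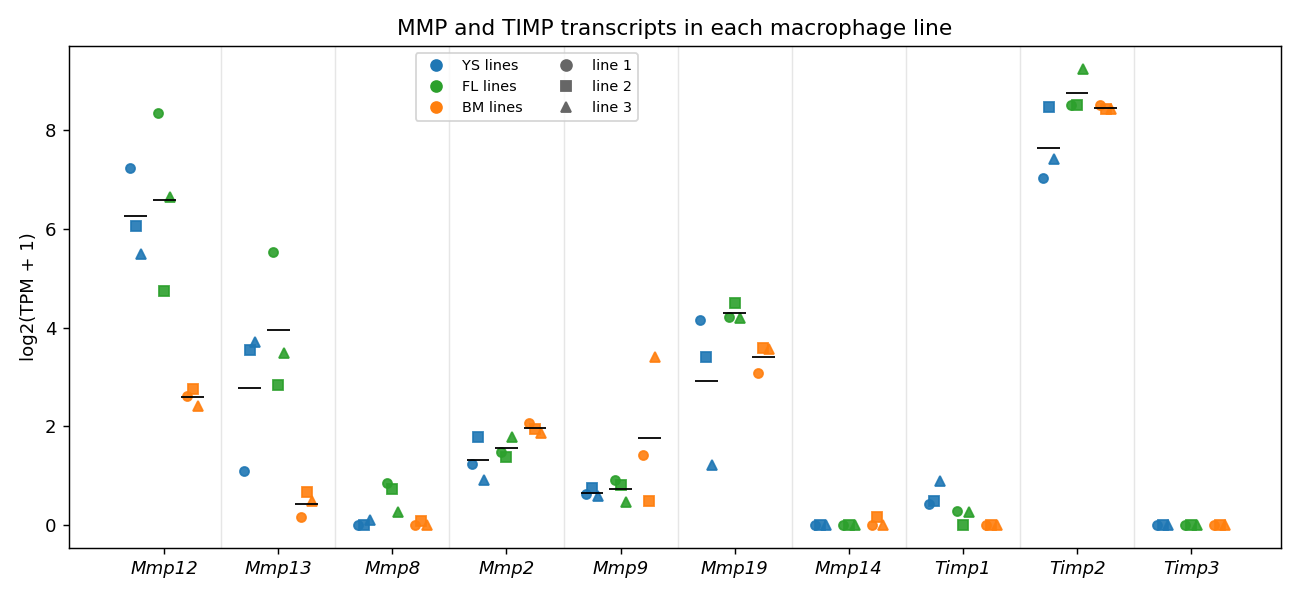
The level of each of the 10 members in each of the 9 lines, as log2(TPM + 1) on the vertical axis. Each point is 1 line, the colour gives the source, the marker shape gives the line number, and horizontal bars give the mean of the 3 lines for the members with no value of 0. Mmp12 and Mmp13 lie lowest in the BM lines, Timp2 is the highest member in all lines but YS line 1, and Timp3 lies at 0 throughout.

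Mmp12, the macrophage elastase, had the largest difference between sources among the members on the log2(TPM + 1) scale, although with a pseudocount of 0.1 the difference of Mmp13 between FL and BM lines was larger (5.12 against 4.21). Its levels in YS lines 1, 2 and 3 were 149.67, 65.98 and 43.89 TPM. In the FL lines they were 325.63, 25.71 and 99.18 TPM. In the BM lines they were 5.12, 5.71 and 4.28 TPM. Every YS and FL line lay above every BM line, the BM lines lay close together, and the FL lines spread the most, with FL line 1 highest and FL line 2 lowest. On the log2(TPM + 1) scale the means (± SD, n = 3 lines each) were 6.26 ± 0.89 for YS, 6.58 ± 1.81 for FL and 2.59 ± 0.17 for BM. YS lines were higher than BM lines by 3.68 (SE 0.80, limma adjusted p = 0.0126), and the mean TPM was 17.2 times as high (10.9 times without YS line 1). FL lines were higher than BM lines by 3.99 (SE 0.80, limma adjusted p = 0.0102), and the mean TPM was 29.8 times as high (12.4 times without FL line 1). Without BM line 2 these differences were 3.76 (limma adjusted p = 0.0329) and 4.07 (limma adjusted p = 0.0291). In the exact two-sided permutation test, YS and BM lines and FL and BM lines each differed at p = 0.1. That is the smallest value that 3 lines against 3 can give. Between YS and FL lines the difference was -0.32 (SE 0.80, limma adjusted p = 0.827), and the ranges overlapped. In these bulk libraries, fewer expressing cells and less RNA per cell cannot be told apart.

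The collagenases cut fibrillar collagen. Mmp13, collagenase 3, had levels of 1.12, 10.64 and 12.11 TPM in the YS lines. It had 45.07, 6.14 and 10.24 TPM in the FL lines. In the BM lines it had 0.11, 0.58 and 0.39 TPM. As for Mmp12, every YS and FL line lay above every BM line and FL line 1 was highest, but YS line 1, the highest YS line for Mmp12, was the lowest for Mmp13. The log2(TPM + 1) means (± SD, n = 3 lines each) were 2.78 ± 1.47 for YS, 3.95 ± 1.40 for FL and 0.43 ± 0.26 for BM. FL lines were higher than BM lines by 3.52 (SE 0.82, limma adjusted p = 0.0182), and by 3.64 without BM line 2 (limma adjusted p = 0.0462). The mean TPM was 56.9 times as high, or 22.7 times without FL line 1. YS lines were higher than BM lines by 2.35 (SE 0.82, limma adjusted p = 0.0623), with a mean TPM 22.1 times as high. That call was lost without YS line 2 (1.97, limma adjusted p = 0.154), YS line 3 (1.88, limma adjusted p = 0.148), BM line 1 (2.21, limma adjusted p = 0.163), BM line 2 (2.47, limma adjusted p = 0.114) or BM line 3 (2.37, limma adjusted p = 0.141). The difference between YS and FL lines, -1.17, had an SE of 0.82 and was not called (limma adjusted p = 0.391). Since Mmp13 entered the fit only through the YS and FL lines, where it was high, its tests against BM lines are descriptions. With no filter on low values the FL lines differed from the BM lines by 3.52 (limma adjusted p = 0.0348). The YS lines then differed from the BM lines by 2.35 (limma adjusted p = 0.102) and were not called.

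Mmp8 encodes collagenase 2, known best from neutrophil granules. It was listed at 0, 0 and 0.07 TPM in the YS lines. In the FL lines it stood at 0.80, 0.65 and 0.19 TPM. In the BM lines it stood at 0, 0.06 and 0 TPM. The FL lines lay above all others, but no line reached 1 TPM and the gene was not tested with limma. By an exact permutation test, two-sided, FL and BM lines differed at p = 0.1, the smallest value that 3 lines against 3 can give. Of the neutrophil markers only S100a8 reached 1 TPM, at 10.49, 25.11 and 24.20 TPM in the FL lines against at most 5.00 TPM elsewhere, while S100a9, Elane, Ngp and Retnlg were listed at 0 in every library. With no filter on low values, the limma difference of FL from BM lines was 0.58 for Mmp8 (limma adjusted p = 0.0314). This is under 2-fold only on the log2(TPM + 1) scale, where the added 1 outweighs such low values. The mean TPM was 0.547 in FL and 0.02 in BM lines. Since BM lines 1 and 3 were listed at 0, which was not read as absence, the limma test of Mmp8 is a description. The part of neutrophils in the Mmp8 values was not tested.

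The gelatinases cut denatured collagen and the type IV collagen of basement membranes. Mmp2, gelatinase A, had 1.36, 2.43 and 0.87 TPM in the YS lines. It had 1.77, 1.61 and 2.44 TPM in the FL lines. In the BM lines it had 3.17, 2.85 and 2.65 TPM. Every BM line lay above every YS and FL line, whereas for Mmp12 and Mmp13 every BM line lay below them, and the levels of Mmp2 were low throughout. The difference of YS from BM lines was -0.65 (SE 0.26, limma adjusted p = 0.0901), which is under 2-fold and was not called, and that of FL from BM lines was -0.41 (SE 0.26, limma adjusted p = 0.30). Without BM line 2 these were -0.66 (limma adjusted p = 0.178) and -0.42 (limma adjusted p = 0.432). YS and FL lines overlapped and differed by -0.24 (limma adjusted p = 0.583).

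Mmp9, gelatinase B, is abundant in osteoclasts and neutrophils. Its levels were 0.54, 0.67 and 0.50 TPM in the YS lines. They were 0.87, 0.75 and 0.38 TPM in the FL lines. In the BM lines they were 1.68, 0.40 and 9.61 TPM. BM lines 3 and 1 were highest, while BM line 2 lay within the range of the other sources, so the BM values overlapped those of YS and FL lines and the gene did not enter the limma test. Ctsk, which encodes the collagen-degrading protease cathepsin K and is a marker of osteoclasts, had the same order among the BM lines, at 333.37, 90.21 and 1270.20 TPM, against 0.28 to 3.24 TPM in YS and FL lines. Atp6v0d2, a proton pump subunit of osteoclasts, had 14.89, 6.34 and 23.82 TPM in the BM lines. The summed level of 8 osteoclast markers ranged from 196 to 1414.7 TPM in BM lines, against 67.9 to 155 TPM in YS lines and 59.1 to 68.8 TPM in FL lines. Ctsk had the largest part of the sum in BM lines 1 and 3, and other genes of the list were highest in YS lines. Dcstamp, a fusion gene of osteoclasts, had 44.01, 28.68 and 5.16 TPM in the YS lines against 3.46, 6.15 and 5.19 TPM in the BM lines. Itgb3, an integrin chain of osteoclasts, had 31.31, 14.58 and 2.47 TPM in the YS lines against 0, 0.41 and 0 TPM in the BM lines. Acp5 and Ocstamp had their highest levels in YS line 1, at 6.86 and 3.70 TPM. Calcr, the calcitonin receptor and a defining marker of mature osteoclasts, was listed at 0 in all libraries but FL line 3, which had 0.04 TPM. Whether osteoclast-type cells account for part of the Mmp9 values was not tested.

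Mmp14 encodes a membrane-anchored MMP that activates the MMP2 precursor at the cell surface with TIMP2 as the adaptor. It was listed at 0 in all libraries but BM line 2, which had 0.11 TPM. Mmp19 encodes a secreted MMP that cuts basement membrane proteins. It had 16.70, 9.65 and 1.32 TPM in the YS lines, 17.47, 21.47 and 17.26 TPM in the FL lines and 7.42, 11.08 and 10.83 TPM in the BM lines. The FL lines lay above every YS and BM line, and YS line 3 was far below the other YS lines. The log2 differences were 0.88 for FL against BM lines (SE 0.62, limma adjusted p = 0.361) and -1.37 for YS against FL lines (SE 0.62, limma adjusted p = 0.208), and neither was called. The YS lines differed from the BM lines by -0.49 (SE 0.62, limma adjusted p = 0.585), a value that turned to 0.37 without YS line 3. Without BM line 2 the differences from BM lines were 0.98 for FL (limma adjusted p = 0.436) and -0.39 for YS lines (limma adjusted p = 0.734). With only the FL and BM libraries in the fit their difference, 0.88, had a limma adjusted p of 0.0128, still under 2-fold. Without YS line 1 the YS lines were called lower than the FL lines (-1.98, limma adjusted p = 0.0844).

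Among the inhibitors, Timp2 stood alone at a high level. TIMP2 inhibits many MMPs and takes part in the activation of MMP2. Its levels were 130.70, 353.87 and 169.28 TPM in the YS lines. They were 363.79, 366.37 and 608.10 TPM in the FL lines. In the BM lines they were 366.16, 344.02 and 344.66 TPM. The YS lines lay below the FL lines without overlap, but YS line 2 was close to the lowest FL line, and it overlapped the BM lines. The log2(TPM + 1) means (± SD, n = 3 lines each) were 7.64 ± 0.74 for YS, 8.76 ± 0.42 for FL and 8.46 ± 0.05 for BM. YS lines were lower than FL lines by a log2 difference of -1.12 (SE 0.35, limma adjusted p = 0.0923). Of the 9 fits that left out 1 line, only that without YS line 2 kept the call (-1.53, limma adjusted p = 0.0209), and in the other 8 the adjusted p lay between 0.104 and 0.248. With only the YS and FL libraries in the fit the limma adjusted p was 0.235. The YS and BM lines differed by -0.82 (SE 0.35, limma adjusted p = 0.108) and were called only without YS line 2 (-1.23, limma adjusted p = 0.0117). The FL and BM lines differed by 0.30 (limma adjusted p = 0.59). Without BM line 2 the differences from BM lines were -0.84 for YS (limma adjusted p = 0.19) and 0.28 for FL lines (limma adjusted p = 0.707).

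Timp1, an inducible inhibitor that also binds the MMP9 precursor, had 0.34, 0.40 and 0.85 TPM in the YS lines and 0.22, 0 and 0.20 TPM in the FL lines, and it was listed at 0 in every BM line. The YS lines lay above all others, at under 1 TPM, and the gene was not tested with limma. By the exact permutation test YS and BM lines differed at p = 0.1. With no filter on low values, the limma difference of YS from BM lines was 0.60 (limma adjusted p = 0.0195). This is under 2-fold on the log2(TPM + 1) scale, and no ratio of mean TPM can be given with the BM lines at 0. The limma test of Timp1 rests on BM values listed at 0, which were not read as absence. It is therefore a description and no support for a difference. Timp3, the matrix-bound inhibitor that also blocks ADAM17, was listed at 0 in all 9 libraries.

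**Figure D2:**
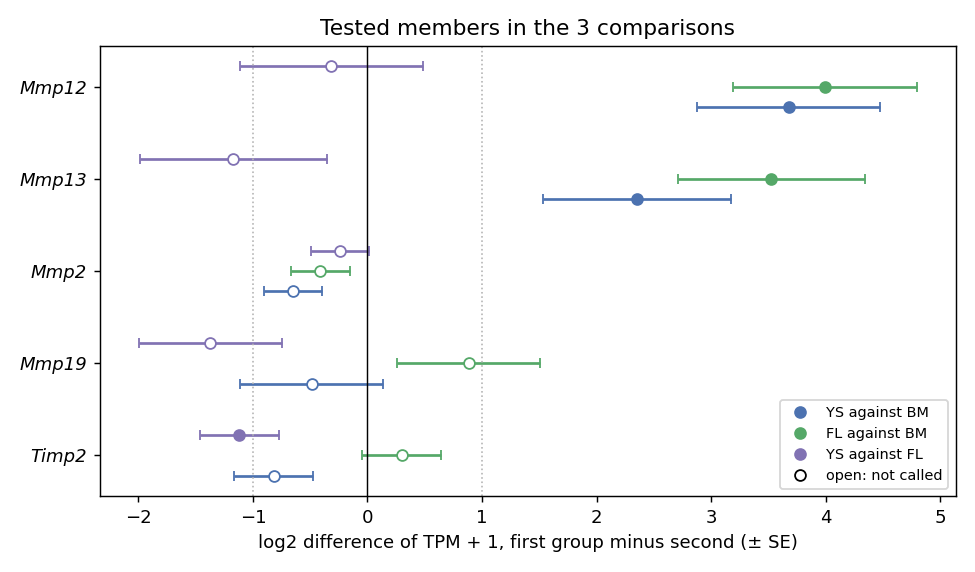
The difference in mean log2(TPM + 1), with its SE as a bar, for the 5 tested members in the 3 comparisons. Filled points passed the test, open points did not, and dotted lines mark a 2-fold difference. Mmp12 and Mmp13 lie to the right for YS and FL against BM lines, and all 5 lie to the left of 0 for YS against FL lines, where only Timp2 passed.

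Counted by separation alone, 3 of the 5 tested members did not overlap between YS and BM lines (YS above BM for 2 and below for 1), where 49.0% of all tested genes did not (30.3% higher and 18.7% lower). Between FL and BM lines 4 of the 5 did not overlap, 3 higher and 1 lower in FL lines, where 49.5% of tested genes did not (31.0% higher and 18.5% lower). Between YS and FL lines 2 of the 5 did not overlap, Mmp19 and Timp2, both lower in YS lines, where 26.1% of tested genes did not (12.6% higher and 13.5% lower). Mmp13, which entered the tested set only through YS and FL lines, is counted as higher in both comparisons with BM lines.

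The order of the members within a library also differed between sources. In every YS and FL line Mmp12 had a higher TPM than Mmp19, and in every BM line Mmp19 had a higher TPM than Mmp12. The summed TPM of the 7 MMP members was 169, 89.4 and 58.8 in the YS lines. It was 392, 56.3 and 130 in the FL lines, and 17.5, 20.8 and 27.8 in the BM lines. Mmp12 made up 15.4% to 29.3% of that sum in BM lines, 73.8% to 88.4% in YS lines and 45.6% to 83.2% in FL lines. Timp2 made up at least 99.5% of the summed TIMP transcripts in every library. The ratio of summed TIMP to summed MMP transcripts was 0.774, 3.96 and 2.90 in the YS lines. The FL lines had ratios of 0.93, 6.50 and 4.69. The BM lines had ratios of 20.9, 16.5 and 12.4, all above those of the other lines. YS line 1 and FL line 1 were the libraries with more MMP than TIMP transcripts. Values listed at 0 entered these sums as 0, with Timp3 listed so in 9 libraries, Mmp14 in 8 and Timp1 in 4. Such values were not read as absence, so the sums, shares and ratios hold for the listed values only. These ratios describe transcripts and say nothing of enzyme activity.

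**Figure D3:**
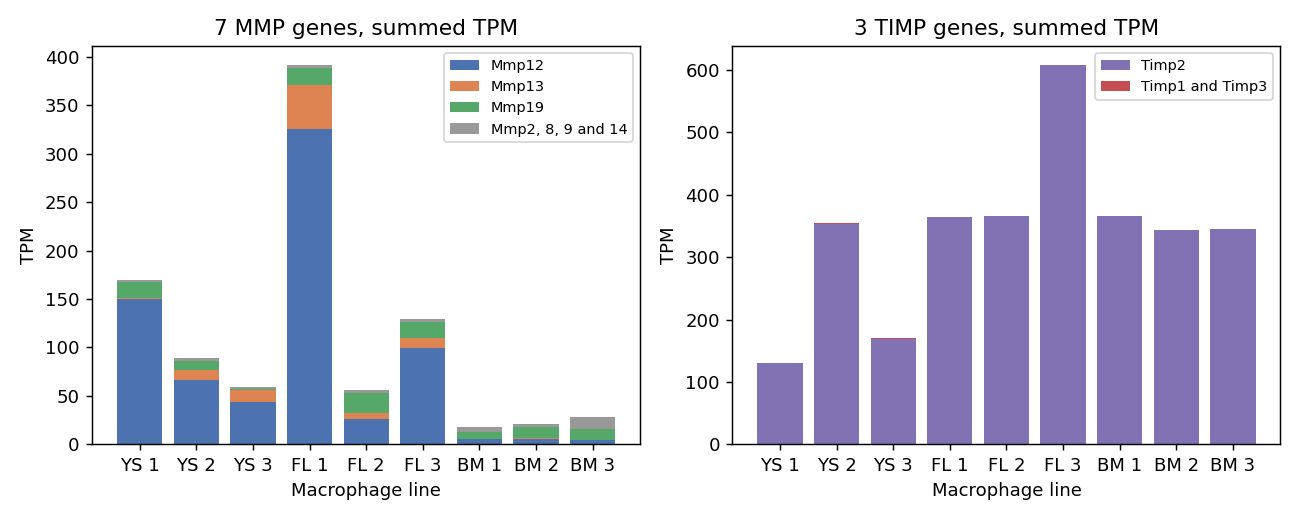
The summed TPM of the 7 MMP members and of the 3 TIMP members in each of the 9 lines, as bars that start at 0, with the share of single genes stacked. The MMP bars of the BM lines are the shortest, between 17.5 and 27.8 TPM. The TIMP bars are almost wholly Timp2, with Timp3 listed at 0 in all 9 lines.

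Mmp13 and Mmp12 are neighbours, Mmp8 lies further along the same cluster, and the whole cluster was read in the order of the chromosome. It held 10 MMP genes of the table, in the order Mmp13, Mmp12, Mmp1b, Mmp3, Mmp1a, Mmp10, Mmp8, Mmp27, Mmp20 and Mmp7. Of these, 5 were listed at 0 in every library (Mmp1b, Mmp3, Mmp1a, Mmp20 and Mmp7). The other 5 were above 0 in a library, and 3 of them reached 1 TPM in a library. Mmp10, which encodes stromelysin 2, reached at most 0.41 TPM, in YS line 3, and was listed at 0 in every BM line. Mmp27 had 0, 0.84 and 0.22 TPM in the YS lines, 3.51, 7.33 and 12.82 TPM in the FL lines and 0, 0.34 and 0 TPM in the BM lines. The FL lines lay above all others. Mmp27 reached 1 TPM in the FL lines alone and entered the limma fit only through them, so no test of it is given. Of the genes beside the cluster, Dync2h1, a dynein heavy chain gene, had 2.35, 2.81 and 3.23 TPM in the YS lines, 3.07, 3.02 and 2.59 TPM in the FL lines and 2.31, 2.25 and 2.24 TPM in the BM lines. Like Mmp12 and Mmp13 it was lowest in the BM lines without overlap, over a far narrower range. Dcun1d5, next to Mmp13, had 136.54 to 248.59 TPM in the YS lines, above the 91.85 to 112.20 TPM of the BM lines, while the FL lines, at 96.93 to 160.41 TPM, overlapped both. On the other side, Tmem123 had 105.63 to 200.84 TPM, with the BM lines inside the range of the other lines.

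**Figure D4:**
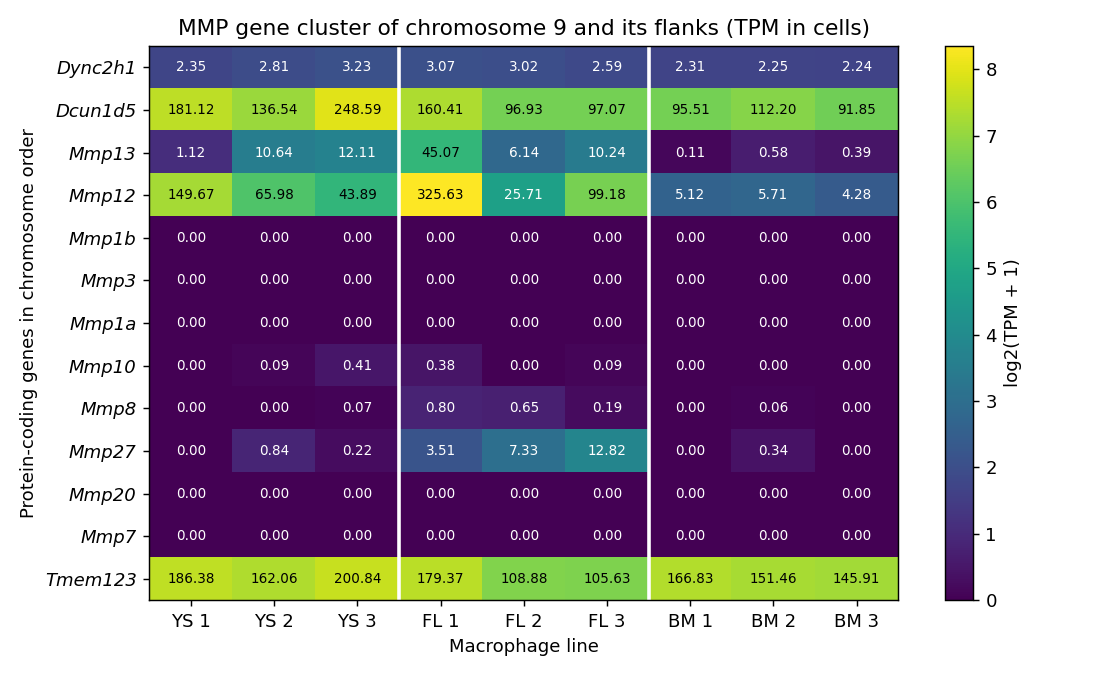
The MMP cluster of chromosome 9 and its neighbouring genes, in chromosome order, against the 9 lines. The colour gives log2(TPM + 1) and the number in each cell gives the TPM. Signal is seen at Mmp13, Mmp12 and Mmp27, at higher levels in YS or FL lines than in BM lines, while the flanking genes Dcun1d5 and Tmem123 are detected in all 9 lines.

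Over the 9 libraries, log2(TPM + 1) of Mmp12 and Mmp13 had a Pearson r of 0.785, that of Mmp2 and Timp2 an r of 0.693 and that of Mmp12 and Timp2 an r of -0.175. The genes with the pattern most like Mmp12 among all tested genes were Cd164 (r = 0.994), which encodes a sialomucin, Csrp1 (r = 0.98) and Xpot (r = 0.978), which encodes the nuclear exporter of tRNA. Cd164 had 151.52, 112.53 and 106.03 TPM in the YS lines, 201.05, 93.68 and 127.63 TPM in the FL lines and 48.93, 57.50 and 46.63 TPM in the BM lines. It thus had the same order of YS lines and of FL lines as Mmp12, over a narrower range. For Mmp13 the nearest genes were Rtkn2 (r = 0.969), Ms4a4b (r = 0.966) and Shb (r = 0.965). For Timp2 they were Tmem237 (r = 0.991), Aga (r = 0.97), which encodes a lysosomal amidase, and Etv1 (r = 0.964), an Ets factor. These are descriptions over 9 points that share the 3 sources, picked from all tested genes.

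The other genes of the pathway were read from lists chosen by function. Of 17 further MMP and TIMP genes only Mmp23 and Mmp27 were tested, and Mmp23 was not called in any comparison. The rest did not exceed 2.99 TPM, the level of the membrane-anchored Mmp25 in FL line 1. Of 16 genes that activate, anchor or clear MMPs, 9 were tested. In YS against BM lines 3 of these were called lower and 0 higher, with a median log2 difference of -0.39, where the median of all tested genes was 0.11. Cd44, the hyaluronan receptor that anchors MMP9 and MMP14 at the cell surface, had 102.90, 124.96 and 106.66 TPM in the YS lines, 200.94, 199.93 and 297.82 TPM in the FL lines and 350.71, 288.38 and 337.09 TPM in the BM lines. YS lines were below both other sources without overlap, by -1.54 against BM lines (SE 0.17, limma adjusted p = 0.00138) and by -1.04 against FL lines (limma adjusted p = 0.0225). The call against FL lines was lost without YS line 1 or FL line 3, where the difference was under 2-fold (-0.98 and -0.85), and with only the YS and FL libraries in the fit (limma adjusted p = 0.113). Lrp1, the endocytic receptor that clears MMPs and TIMPs, lay between 329.53 and 383.43 TPM in YS lines and between 643.20 and 758.16 TPM in BM lines. It was lower in YS lines by -1.02 (SE 0.11, limma adjusted p = 0.00129), and the difference no longer exceeded 2-fold without YS line 1, YS line 3, BM line 1 or BM line 3. Cd151, a tetraspanin, was lower in YS than in BM lines by -1.12 (SE 0.15, limma adjusted p = 0.0026). In FL against BM lines 0 of the 9 were called, with a median of -0.26, and in YS against FL lines 1, Cd44, was called lower, with a median of -0.23. Of the 9 tested, Furin, a convertase that activates MMP14, was lower in FL than in BM lines at an adjusted p of 0.0112 in limma but under 2-fold (-0.90). Pcsk7, another convertase of the list, went the other way and was higher in YS than in BM lines, also under 2-fold (0.85, limma adjusted p = 0.00779). Without BM line 2 the calls of YS against BM lines were kept for Cd44 (-1.62, limma adjusted p = 0.0027), Lrp1 (-1.09, limma adjusted p = 0.00238) and Cd151 (-1.19, limma adjusted p = 0.00581).

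Plasmin, made from plasminogen by urokinase (Plau) at its receptor (Plaur), activates several MMPs. Of 12 genes of this system 7 were tested. In YS against BM lines 1, Serpine2, was called higher and 2 lower. Serpine2, an inhibitor of plasminogen activators, had 38.12, 3.20 and 1.74 TPM in the YS lines and was listed at 0 in all other libraries but BM line 2, which had 0.21 TPM. Serpine2 reached 1 TPM in the YS lines alone and entered the limma fit only through them, so its call is no support for a difference and its test is not given. The 2 called lower were the plasminogen receptors S100a10 (-1.57, limma adjusted p = 0.00645) and Eno1 (-1.62, limma adjusted p = 0.00464). Without BM line 2 these were -1.63 (limma adjusted p = 0.0178) and -1.55 (limma adjusted p = 0.0166). Eno1, a glycolytic enzyme also found at the cell surface, has near-identical copies in the mouse genome, so its level is uncertain. It was also called lower in YS than in FL lines (-1.06, limma adjusted p = 0.0586), a call lost without YS line 1, YS line 2, FL line 2, FL line 3 or BM line 3, and with only the YS and FL libraries in the fit (limma adjusted p = 0.182).

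Urokinase and its receptor were called in opposite directions in FL against BM lines. Plaur had 206.44, 260.77 and 252.18 TPM in the FL lines and 103.75, 136.56 and 93.15 TPM in the BM lines, a difference of 1.11 (SE 0.21, limma adjusted p = 0.0072) whose call was lost without BM line 3, at a difference of 1.00, and kept without BM line 2 (1.27, limma adjusted p = 0.00872). Plau had 193.45, 159.20 and 354.67 TPM in the FL lines and 343.57, 515.36 and 634.02 TPM in the BM lines, a difference of -1.12 (limma adjusted p = 0.0748) with overlapping ranges. The Plau call was lost without FL line 1, FL line 2, BM line 2 or BM line 3 (limma adjusted p between 0.172 and 0.23), with a difference of -1.07 without BM line 2. The plasminogen list had median differences of -0.42, -0.56 and -0.44 in YS against BM, FL against BM and YS against FL lines.

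Of 21 ADAM and ADAMTS genes, which encode related proteases, 8 were tested, and Adam33 in FL against BM lines was the one called (1.69, limma adjusted p = 0.0524). That call was lost without FL line 1, FL line 3, BM line 1 or BM line 3, and kept without BM line 2 (2.06, limma adjusted p = 0.0461). The medians of this list were 0.29, 0.48 and 0.09 in the 3 comparisons. Adam8, Adam9, Adam10, Adam15 and Adam17 were above 100 TPM in every library, and none of them was called. Some differed from BM lines by under 2-fold with a limma adjusted p below 0.1. Adam15 was higher in YS (0.77, limma adjusted p = 0.014) and FL lines (0.60, limma adjusted p = 0.0429). Adam17 was lower in YS (-0.33, limma adjusted p = 0.029) and FL lines (-0.46, limma adjusted p = 0.00975). Adam9 was higher in FL lines (0.36, limma adjusted p = 0.0321).

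Of 20 matrix protein genes, which encode substrates of the MMPs, 6 were tested. Spp1, which encodes osteopontin, an MMP substrate, had 16560.43, 15521.59 and 13837.30 TPM in the BM lines and 668.26, 693.16 and 2201.06 TPM in the FL lines. The difference was -3.92 (limma adjusted p = 0.0799), and the YS lines spread from 108.30 to 7226.94 TPM. The Spp1 call was lost without any one FL or BM line (limma adjusted p between 0.103 and 0.189, and 0.164 without BM line 2), although the ranges did not overlap. With only the FL and BM libraries in the fit the limma adjusted p was 0.00242, and without YS line 1 it was 0.00118. Of 19 alternatives, 10 kept the Spp1 call. Col18a1, a basement membrane collagen, had 0.14, 8.92 and 3.05 TPM in the YS lines, 0.10, 0.03 and 0.09 TPM in the FL lines and 3.61, 24.92 and 48.09 TPM in the BM lines. It could not have entered the limma fit without the BM lines, where it was highest, so no test of it is given. Ecm1, a secreted glycoprotein that binds MMP9, was called higher in FL than in BM lines (2.12, limma adjusted p = 0.00694, and 0.0231 without BM line 2) and lower in YS than in FL lines (-2.07, limma adjusted p = 0.0303), where the call was lost without FL line 3 (-1.83, limma adjusted p = 0.104) and with only the YS and FL libraries in the fit (limma adjusted p = 0.131). Elastin, the classical substrate of MMP12, was listed as Eln at 0 to 0.05 TPM in all libraries but BM line 2, which had 1.51 TPM. The fibrillar collagen genes Col1a1, Col1a2 and Col3a1, which encode substrates of MMP13 and MMP8, did not exceed 0.44 TPM in any library.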

How the data were processed

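RNA-seq libraries of 9 mouse macrophage lines were analysed, 3 each from YS, FL and BM, grouped by their labels. The authors made poly(A)-selected, directional libraries, read them in single-read mode at 75 nt, and deposited 1 table of TPM for 24411 gene symbols. The submitters' processing notes name Trim Galore 0.6.6, STAR 2.7.9a and RSEM 1.3.3, whereas the genome build and annotation are not given in the sources used here. The authors' own test used raw counts, which were not used here, and read depth is unknown from TPM, so no counting intervals are given.

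From TPM, log2(TPM + 1) was computed, and the 11753 genes that reached 1 TPM in 3 or more of the 9 libraries entered a test with limma 3.58.1 in R 4.3.3, in 1 fit over 9 libraries with an intensity trend and Benjamini-Hochberg adjustment within each comparison. Calls needed more than a 2-fold difference with the false discovery rate below 0.1. A log2 difference on this scale understates the change of low genes. Differences in mean log2(TPM + 1) were also compared by exact two-sided permutation tests. All members are named, as are the genes called in each other list, at most 4 per list and comparison, and the 3 genes most correlated with each called member. The members and the lists were chosen with earlier results of these data known. Pseudocount, filter, scaling, trend, samples, block, threshold and single lines were varied. Lines with the same number did not deviate together (Pearson r from -0.118 to 0.088 over 9 pairs).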

Additional observations from a re-analysis of the deposited data

How the results depend on the processing

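Of the 10 members, 5 had too low a level to be tested, and with 3 lines a group and no read depth the spread between cultures is the only measure of error. Mmp12 was called in both comparisons with BM lines under all 19 alternatives (3.15 to 4.06 for YS and 3.11 to 4.91 for FL lines, log2), and Mmp13 in FL against BM lines under all 19 (2.14 to 5.12). Mmp13 entered every filtered fit only through YS and FL lines, so its calls are no support for a difference. Mmp13 in YS against BM lines was called under 10 of 19, and Timp2 in YS against FL lines under 6 of 19. The 2 members called in YS against BM lines became 1 with a pseudocount of 4, with no filter, at a false discovery rate of 0.05, or with the replicate number as a block, and 1 to 2 when each line was left out. The 1 member called in YS against FL lines became 0 with no filter, no trend, only the 6 libraries compared, a false discovery rate of 0.05 or the replicate block, and 0 to 1 when each line was left out. Line numbers did not pair the libraries. The genes called in YS against FL lines were 446, against 280 with a pseudocount of 4, 81 with only the 6 libraries compared, 234 at a false discovery rate of 0.05, and 191 (without FL line 3) to 588 (without YS line 2) when each line was left out. Directions turned for Mmp19 in YS against BM lines without YS line 3 (0.37, where the fits without 1 line ranged from -1.10 to 0.37), and for Mmp12 in YS against FL lines without YS line 3 (0.07) or FL line 1 (0.57, in a range from -1.24 to 0.57), none of them called. With quantile normalization the genes called were 724 higher and 763 lower in YS and 592 higher and 593 lower in FL against BM lines, and with median-of-ratios scaling 766 and 741, and 623 and 583, where the deposited scale gave 890 and 614, and 706 and 505. The median of all tested genes in YS against BM lines was 0.11 on the deposited scale. The cause of these changes was not tested.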
